A study of Mus musculus with 4 samples.

Results

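Keratinocytes of Il17rd knockout (KO) mice treated with interleukin-17A (IL-17A) were compared with wild-type (WT) keratinocytes given the same treatment. The comparison uses 2 of the 4 RNA-seq libraries of the series, 1 library per genotype, and all 13102 gene rows. The cells are primary epidermal keratinocytes, the main cell type of the outer layer of skin. They came from newborn C57BL/6 mice, were freed with dispase and trypsin and were grown for 48 h in 154CF medium with the HKGS supplement. Il17rd KO cells and WT cells both received IL-17A at 100 ng/mL for 8 h. The libraries set beside them are Il17rc KO cells with the same IL-17A treatment and untreated WT cells. The sources used here do not give the deleted exons, nor the number and sex of the mice behind each culture. An untreated Il17rd KO library was not analysed here. What the genotype does by itself and what it does to the IL-17A response therefore cannot be told apart.

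IL-17A is a cytokine of the skin and gut barrier that signals through a receptor built from IL-17RA and IL-17RC chains. The chains recruit the adaptor Act1, encoded by Traf3ip2, which leads to NF-kB and MAP kinase activation and to stabilisation of short-lived messenger RNAs. Keratinocytes answer with neutrophil-attracting chemokines, antimicrobial proteins and NF-kB feedback regulators such as IkB-zeta and Regnase-1. IL-17RD, also named SEF, is a member of the same receptor family and is also known as an inhibitor of signalling by fibroblast growth factor (FGF) receptors through ERK. The series asks, from its title, whether IL-17RD acts as another receptor for IL-17A.

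Total counts over the deposited genes ranged from 19711866 to 19904695, so depth was nearly equal. Levels are given in CPM, which are counts relative to TMM-scaled library size. A gene is called higher or lower when its log2 ratio (prior count of 2) reached 1 in size and the exact 95% counting interval of the count ratio excluded 1. The interval follows each ratio in parentheses. It covers counting error only, and reads that carry no molecular identifiers need not be independent. With 1 library per group there are no replicates to test against, and p-values are not given. Every call describes a pair of libraries, and variation between dishes or mice cannot be told apart from it.

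The targeted gene and the cell markers were examined first. Il17rd (chr14:27038941-27107286, plus strand, GRCm38) had 5 counts in the Il17rd KO library against 265 in IL-17A WT, with 150 in Il17rc KO and 252 in untreated WT. It was thus 55.6-fold lower (23.5 to 173) than in IL-17A WT, in the direction of its label. The 10 keratinocyte markers summed to 48443 CPM in Il17rd KO and 45006 CPM in IL-17A WT, and 0 of them were called. The Y-linked genes Eif2s3y, Kdm5d and Uty had 0 counts in Il17rd KO against 204, 104 and 83 in IL-17A WT, and Xist had 8513 against 4750. In Il17rc KO these Y-linked genes had 540, 348 and 301 counts, and Xist had 2668. In untreated WT the same genes had 589, 397 and 278, and Xist had 2420. IL-17A WT thus also differed from the libraries set beside it. The sex of the mice behind these libraries therefore cannot be told apart from genotype or treatment.

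Across the 12934 genes tested, whose mean level was 1 CPM or more, 782 were higher in Il17rd KO (6.05%) and 466 were lower (3.6%), or 9.65% in either direction. The median log2 ratio of all these genes was 0.01, and 10173 of them (78.7%) lay within 1.5-fold. Differences of at least 4-fold were called for 229 genes higher and 107 lower, and differences of at least 10-fold for 72 higher and 36 lower. The genes called higher took 4.13% of all counts in Il17rd KO and 1.22% in IL-17A WT. The genes called lower took 2.24% in Il17rd KO and 6.39% in IL-17A WT. These shares of called genes are the background against which the counts for each gene group below are read.

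**Figure D1:**
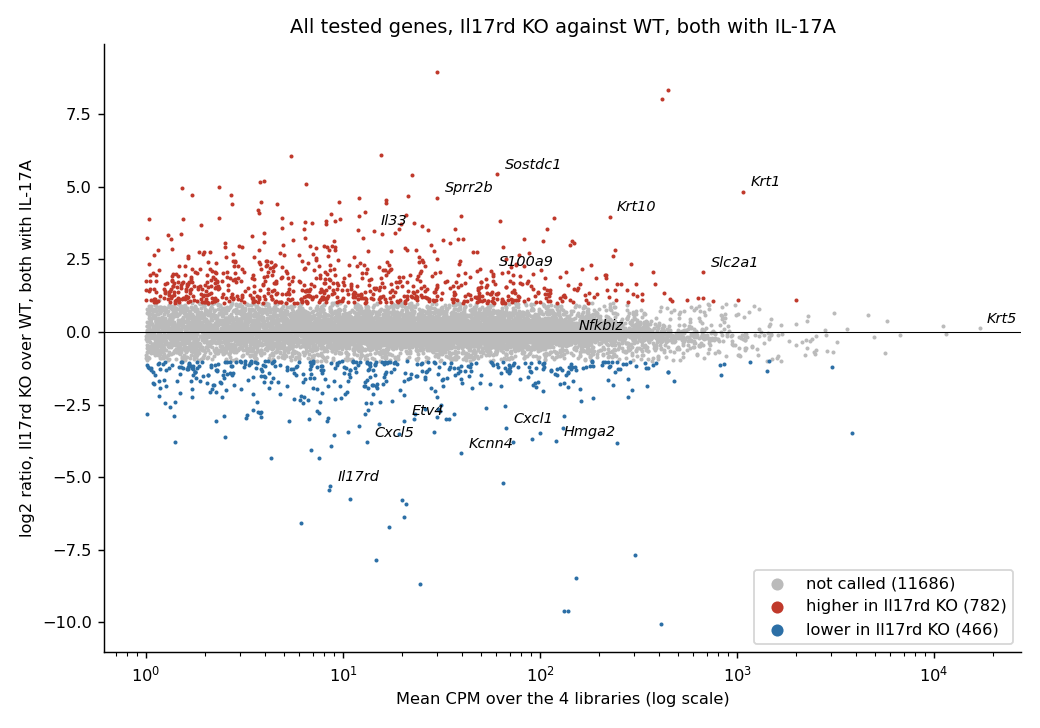
Log2 ratio of Il17rd KO over WT, both with IL-17A (vertical axis), against the mean CPM over the 4 libraries (horizontal log axis), 1 point per tested gene. Red points are the 782 genes called higher and blue points the 466 called lower. Sostdc1, Krt1 and Sprr2b stand at the top among the labelled genes, Il17rd, Kcnn4 and Cxcl5 at the bottom, and Krt5 and Nfkbiz lie near 0.

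The receptor family and its proximal signalling genes differed little beyond Il17rd itself. Of 27 measured members 2 were higher and 1 lower, and the median of their log2 ratios was -0.00. Il17ra, which encodes the shared receptor chain, had 558 counts in Il17rd KO and 462 in IL-17A WT. Il17rc, the partner chain, had 1718 and 1152, which is 1.42-fold higher (1.32 to 1.53) and under the size called. In the Il17rc KO library, where it is the targeted gene, Il17rc still had 439 counts, or 21.9 CPM against 58.9 CPM in IL-17A WT. Traf3ip2, the gene of Act1, had 1079 and 1216 counts. The members called higher were Il17rb, the receptor chain for IL-25, with 28 counts in Il17rd KO against 3 in IL-17A WT, and the adaptor gene Traf5 with 43 against 19. Both are low counts, and Il17rb reached 72 counts in untreated WT.

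Several chemokine and colony-stimulating factor genes were lower in Il17rd KO, some at levels between those of IL-17A WT and untreated WT. Of 13 measured genes 6 were called lower and 0 higher; the list's median log2 ratio was -0.998. Cxcl1 and Cxcl2, neighbouring genes on chromosome 5 for ligands that attract neutrophils, are shown by their promoters because NF-kB acts on genes of this kind. The windows run from 250 bases before to 50 bases after the annotated start and come from RefSeq, build GRCm38.p6, on the plus strand, at chr5:90890995-90891294 for Cxcl1 and chr5:90903649-90903948 for Cxcl2. Capitals mark matches to GGAANTTCC, the core of an NF-kB type motif, searched on both strands, on which it reads the same.
Cxcl1: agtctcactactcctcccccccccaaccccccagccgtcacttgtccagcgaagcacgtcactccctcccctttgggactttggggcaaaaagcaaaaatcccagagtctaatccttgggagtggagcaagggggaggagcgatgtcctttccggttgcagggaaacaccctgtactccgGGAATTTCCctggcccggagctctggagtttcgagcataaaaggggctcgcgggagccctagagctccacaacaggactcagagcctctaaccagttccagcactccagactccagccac
Cxcl2: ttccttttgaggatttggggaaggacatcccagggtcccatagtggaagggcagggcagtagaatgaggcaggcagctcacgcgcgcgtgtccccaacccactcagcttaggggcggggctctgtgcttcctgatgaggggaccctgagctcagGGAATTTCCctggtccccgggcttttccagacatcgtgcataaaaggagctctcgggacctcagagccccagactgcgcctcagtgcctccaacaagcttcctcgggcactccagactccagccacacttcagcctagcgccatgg
Both windows hold the same 9 letters at the match, starting 70 bases before the annotated start in Cxcl1 and 96 bases before it in Cxcl2. The motif was found in 263 of 27025 mouse promoters (0.973%), and in 3 of the 9 promoters listed for measured members of this group, the third being that of Cxcl10. It was also found in 1 of 13 promoters of measured small proline-rich genes, that of Sprr2b, which was called higher. The motif was chosen after the values were seen, and a match describes letters only.

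Cxcl5, a further neutrophil chemokine of that cluster, had 70 counts in Il17rd KO against 951 in IL-17A WT, with 5 in Il17rc KO and 12 in untreated WT. It was 14.3-fold lower (11.2 to 18.4) than in IL-17A WT but still 13.7-fold higher (5.59 to 43.4) than in Il17rc KO. Cxcl1 had 468 counts in Il17rd KO against 4443 in IL-17A WT, with 286 in Il17rc KO and 92 in untreated WT. Cxcl2 had 82 against 426, with 73 and 22 in the same further libraries, and was 5.45-fold lower (4.30 to 6.99). Csf3, the granulocyte colony-stimulating factor, had 53 counts in Il17rd KO and 610 in IL-17A WT, with 31 in Il17rc KO and 17 in untreated WT. For these 4 genes the IL-17A WT library stood far above the other 3, and Il17rd KO lay above untreated WT each time. The fractalkine gene Cx3cl1 and the interferon-type chemokine gene Cxcl10 were lower by smaller ratios, 2.46-fold (1.85 to 3.32) and 2.57-fold (1.90 to 3.50). Ccl20, which attracts CCR6-bearing lymphocytes, went the other way without being called, at 236 counts in Il17rd KO and 152 in IL-17A WT. Csf1, a macrophage growth factor, had 1964 and 3672 counts and was just under the size called, 1.96-fold lower (1.86 to 2.07).

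Cytokines of the IL-1 family divided into both directions. Il1a, an alarmin of keratinocytes, had 501 counts in Il17rd KO against 6135 in IL-17A WT, with 275 in Il17rc KO and 246 in untreated WT, and was 12.9-fold lower (11.7 to 14.1). Il33, a nuclear alarmin, had 595 counts in Il17rd KO against 49 in IL-17A WT, with 290 in Il17rc KO and 214 in untreated WT. It was 11.6-fold higher (8.64 to 15.8), and for this gene Il17rd KO was the highest of the 4 libraries. Il18 had 178 counts in Il17rd KO against 27 in IL-17A WT, and was 6.28-fold higher (4.18 to 9.80), below its 441 counts in untreated WT. The IL-36 family genes Il1f5, Il1f8 and Il1f9 also lay on the higher side, Il1f5 by 2.35-fold (2.20 to 2.50), Il1f8 by 2.74-fold (2.12 to 3.57) and Il1f9 by 2.34-fold (2.15 to 2.55). Il1rn, the IL-1 receptor antagonist, had 1951 counts in Il17rd KO and 923 in IL-17A WT, and was 2.01-fold higher (1.86 to 2.18). In all, 6 of 13 members were higher and 2 lower, and the median of their log2 ratios was 0.42. The other lower member was Il1rl1, the receptor of IL-33, at 74 against 174 counts.

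Among 10 other epithelial cytokine genes 5 were lower and 1 higher; the list's median log2 ratio was -1.07. Il24, a cytokine of the IL-20 group, had 40 counts in Il17rd KO against 333 in IL-17A WT, with 46 in Il17rc KO and 2 in untreated WT. Il23a, the p19 chain of IL-23, had 32 against 209, with 17 in each of the other libraries, and was 6.85-fold lower (4.71 to 10.3). Tnf had 382 counts in Il17rd KO and 1120 in IL-17A WT, with 230 in Il17rc KO and 319 in untreated WT, so its Il17rd KO level was close to that of untreated cells. Il34 and Tgfa were the other lower members, with 56 and 1351 counts in Il17rd KO against 155 and 3015 in IL-17A WT. Vegfa, a growth factor of blood vessels, was the one higher, with 662 counts against 242. Tslp, an epithelial cytokine of type 2 inflammation, had 1115 counts in Il17rd KO and 865 in IL-17A WT, against 2350 in Il17rc KO.

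Of 27 cytokine and TNF receptor genes 6 were higher and 3 lower. Tnfrsf11b, which encodes osteoprotegerin, had 1157 counts in Il17rd KO against 193 in IL-17A WT, and was 5.71-fold higher (4.90 to 6.69). Il6st and Il6ra, the chains of the IL-6 receptor, were also higher, at log2 ratios of 1.11 and 1.25, as were Il13ra1 and the TNF receptor family genes Tnfrsf18 and Fas. Il18r1, the receptor chain of IL-18, was 5.57-fold lower (4.54 to 6.88), with 111 counts in Il17rd KO against 589 in IL-17A WT. The ligand gene Il18 and its receptor gene were thus called in opposite directions.

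NF-kB feedback genes did not follow the chemokines. Nfkbiz, which encodes IkB-zeta, had 4209 counts in Il17rd KO against 4338 in IL-17A WT, with 1659 in Il17rc KO and 1257 in untreated WT. Zc3h12a, which encodes the ribonuclease Regnase-1, had 3274 against 3322, with 646 in Il17rc KO and 1095 in untreated WT. The Il17rd KO levels were 1.08-fold (1.04 to 1.13) and 1.06-fold (1.01 to 1.12) lower than in IL-17A WT. Both genes were called higher than in Il17rc KO, by 2.48-fold (2.34 to 2.62) and 4.95-fold (4.55 to 5.39). Nfkbia, the gene of the inhibitor IkB-alpha, had 5592 counts in Il17rd KO and 5629 in IL-17A WT. Of the 31 genes of the NF-kB list 3 were higher and 2 lower, and the median of their log2 ratios was 0.08. The higher ones were Tifa, at 3.53-fold (2.36 to 5.44), and Map3k8 and Bcl3, with 343 and 565 counts in Il17rd KO against 146 and 242 in IL-17A WT. The lower ones were Tnfaip8 and Ier3, both close to the size called at log2 ratios of -1.05 and -1.03, and Tnfaip3, the gene of the deubiquitinase A20, was 1.90-fold lower (1.76 to 2.06) without being called. Of 16 genes for proteins that act on IL-17A-induced messenger RNA, Zfp36l2 alone was called, at a log2 ratio of -1.17.

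**Figure D2:**
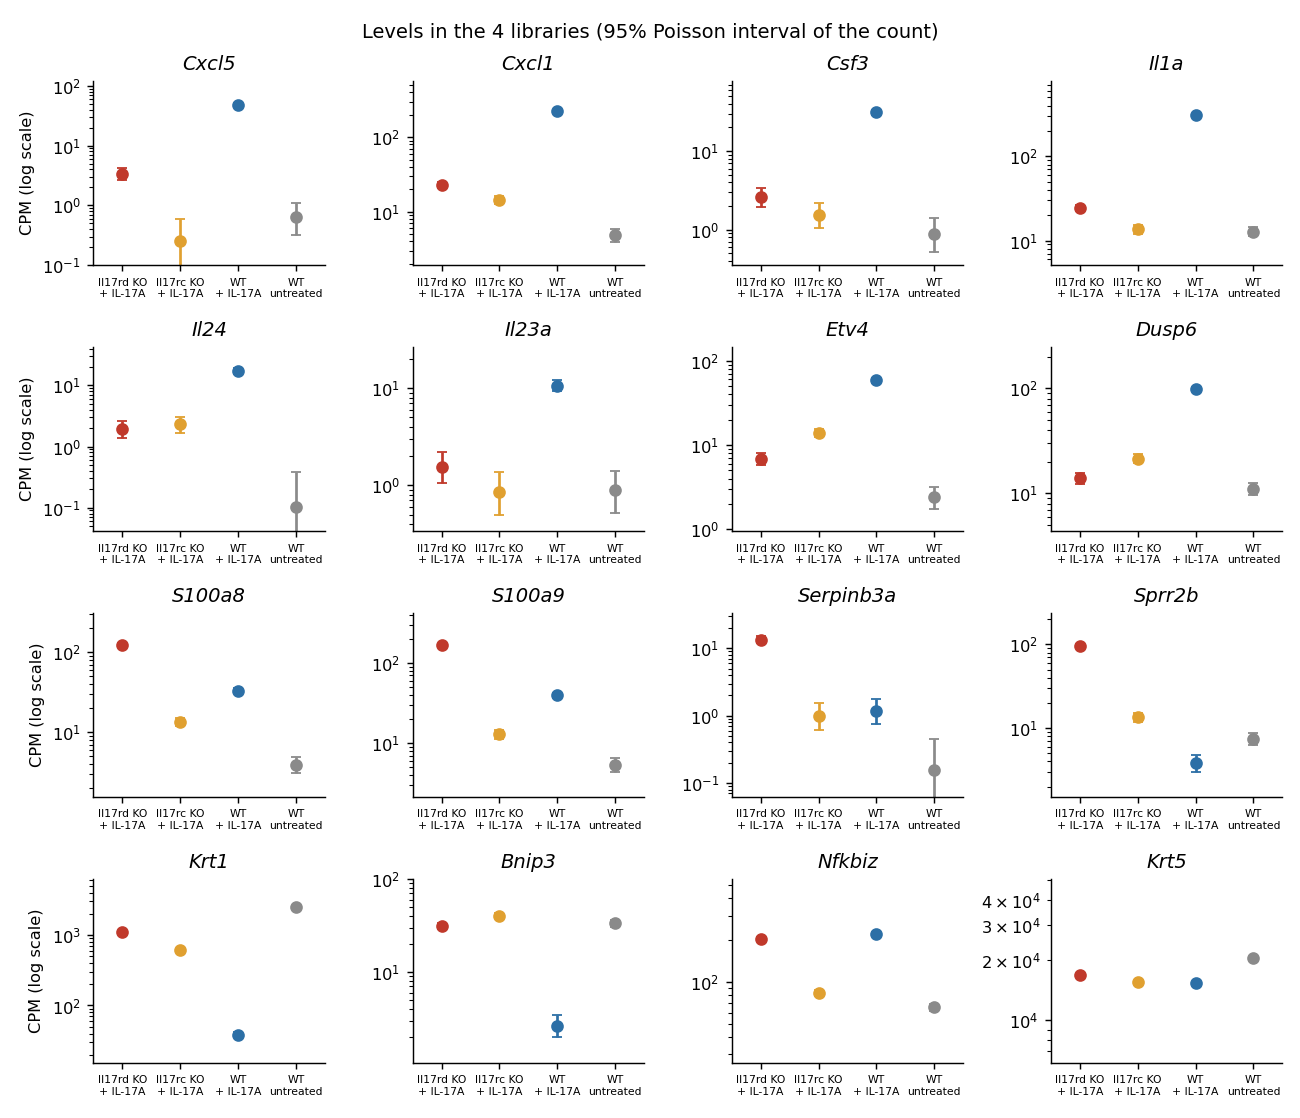
CPM of 16 genes (log axes) in the 4 libraries, 1 point per library with the exact 95% Poisson interval of its count. Cxcl5, Cxcl1, Csf3, Il1a, Il24, Il23a, Etv4 and Dusp6 are highest in WT with IL-17A. S100a8, S100a9, Serpinb3a and Sprr2b are highest in Il17rd KO, and Nfkbiz is alike in Il17rd KO and WT with IL-17A.

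The ERK feedback group had the lowest median of the pathway lists. Of its 20 measured members 13 were lower in Il17rd KO and 0 higher; the list's median log2 ratio was -1.27. Dusp6, a phosphatase that switches off ERK, had 285 counts in Il17rd KO against 1942 in IL-17A WT, with 430 in Il17rc KO and 211 in untreated WT. Etv4 and Etv5, transcription factors of the PEA3 group that are read out when ERK is active, had 142 and 123 counts in Il17rd KO against 1143 and 768 in IL-17A WT. They had 280 and 151 counts in Il17rc KO and 46 and 18 in untreated WT. Spry4, an inhibitor of receptor tyrosine kinase signalling, was 5.56-fold lower (3.75 to 8.51). Each of these genes was highest in IL-17A WT. Against Il17rc KO, Etv4 and Spry4 were called lower in Il17rd KO, by 2.02-fold (1.64 to 2.49) and 2.12-fold (1.35 to 3.39), close to the size called. Dusp6 was 1.55-fold lower (1.33 to 1.80) than in Il17rc KO without being called, and the interval of Etv5 included 1 (1.26-fold lower, 0.98 to 1.61). Of the 20 members 2 were called lower than in Il17rc KO, with a median log2 ratio of -0.29. Dusp7 and Errfi1, a feedback inhibitor of the EGF receptor, were not called, at log2 ratios of -0.44 and -0.00.

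Of 16 genes for FGF ligands, receptors and their partners 3 were higher, 1 was lower and 12 were not called. Fgfr3 had 796 counts in Il17rd KO against 81 in IL-17A WT, with 671 in Il17rc KO and 1649 in untreated WT, and was 9.36-fold higher (7.44 to 11.9). Fgfr2, whose epithelial isoform receives dermal FGF7 and FGF10, had 5759 counts against 1767. Flrt3, a membrane protein that binds FGF receptors, was 2.16-fold higher (2.04 to 2.29). Fgfbp3, a carrier of FGF ligands, was lower, with 165 counts in Il17rd KO against 523 in IL-17A WT. Of 15 genes for EGF receptor ligands, their sheddases and ERBB receptors, 3 ligand genes were lower, Hbegf, Tgfa and Areg, and the ligand gene Epgn was higher, at 1727 counts against 742. Among 26 immediate early genes 4 were lower, Ctgf, Cyr61, Fosl1 and Maff, and 2 were higher, Jun and Egr3. Fosl1, a partner of Jun in AP-1, had 161 counts in Il17rd KO and 552 in IL-17A WT, and shares 57.2% of its exon bases with Ccdc85b, so that its counts are uncertain.

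Some genes of matrix breakdown and cell migration were among those called lower. Mmp9, a gelatinase, had 119 counts in Il17rd KO against 1314 in IL-17A WT, with 57 in Il17rc KO and 21 in untreated WT. Plaur, the urokinase receptor, had 237 against 1834. Plau, urokinase itself, was 2.18-fold lower (2.12 to 2.24), and the aggrecanase gene Adamts4 was 3.83-fold lower (3.25 to 4.52). Of 26 genes of the metalloprotease and urokinase list 6 were lower and 19 were not called, the median of their log2 ratios was -0.07, and Adamts1 alone was higher, 2.11-fold (1.93 to 2.31). Plau, Mmp9 and Adamts4 stayed above their Il17rc KO levels, and Adamts1 stayed below its Il17rc KO level of 3116 counts.

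Calprotectin and a few other defence genes were higher in Il17rd KO than in every other library. S100a8 had 2575 counts in Il17rd KO against 653 in IL-17A WT, with 269 in Il17rc KO and 75 in untreated WT. S100a9, its partner in calprotectin, had 3470 against 770, with 258 in Il17rc KO and 103 in untreated WT. Chil1, a chitinase-like protein gene, had 165 counts against 23, 16 and 20 in IL-17A WT, Il17rc KO and untreated WT. Lcn2, which encodes the iron-binding protein lipocalin 2, had 135 counts in Il17rd KO against 54 in IL-17A WT, with 19 in Il17rc KO and 85 in untreated WT. The acute phase gene Serpina3n had 877 counts in Il17rd KO and 223 in IL-17A WT. The antimicrobial list as a whole was split, with 5 of 16 measured members higher and 3 lower. Defb1, a beta-defensin, was 3.93-fold higher (3.68 to 4.20), and its 4667 counts lay below the 6168 of Il17rc KO. Complement C3 was 2.34-fold lower (2.15 to 2.55), the protease inhibitor gene Slpi 2.83-fold (2.58 to 3.11), and Wfdc2 had 33 counts against 116. S100a7a, an IL-17A-responsive gene of psoriasin type, had 76 counts in Il17rd KO and 66 in IL-17A WT, against 8 in Il17rc KO. Of the other S100 genes S100a3 was called, at 12 counts against 30, and S100a10 and S100a11 were lower without being called.

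Of 23 measured protease inhibitor genes of the clade B serpin and cystatin families 14 were higher and 0 lower, and the median of their log2 ratios was 1.61. Serpinb3a, the mouse relative of the squamous cell carcinoma antigens, had 277 counts in Il17rd KO against 23 in IL-17A WT, with 20 in Il17rc KO and 3 in untreated WT. Serpinb12 had 171 counts against 7, with 90 and 30 in the same further libraries, and was 23.3-fold higher (11.1 to 58.8). Stfa1, a stefin, had 1764 counts against 200, but its transcript has a near-identical copy in BC100530. The clade B serpin cluster on chromosome 1 (chr1:106861173-107610484) had 9 tested genes, of which 7 were higher and 0 lower. Serpinb2 and Serpinb5, members with high counts, were not called, at log2 ratios of -0.28 and 0.47.

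Many of the higher genes lie in the epidermal differentiation complex on chromosome 3. This gene-dense region encodes most proteins of the cornified envelope, the crosslinked shell of the outermost skin cells. Between S100a1 and S100a11 (chr3:90511034-93526287) 69 genes were tested, and 47 were higher and 3 lower; the list's median log2 ratio was 2.06. The lower genes were S100a3, Sprr2k and Crnn. Chromosome 3 had the highest share of called genes among the autosomes, 15.4%, against 9.65% over all tested genes. Most S100 genes of the complex were not called, with S100a8 and S100a9 called higher and S100a3 lower.

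**Figure D3:**
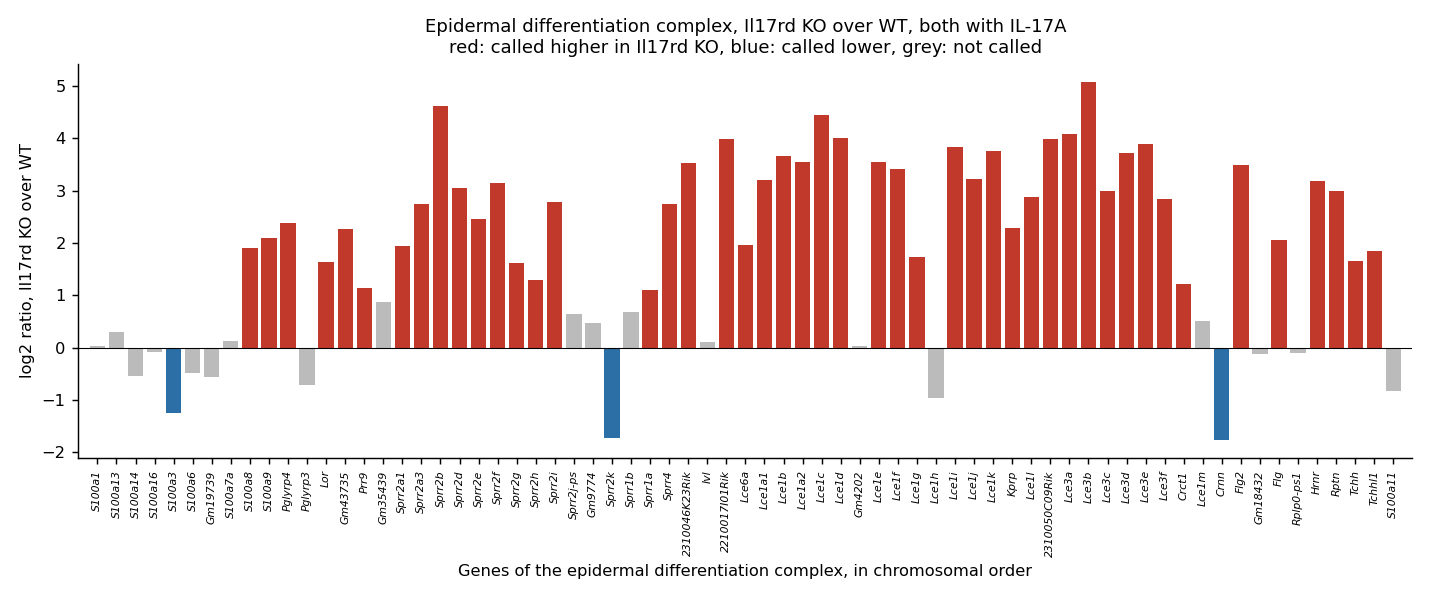
Log2 ratio of Il17rd KO over WT, both with IL-17A, for the 69 tested genes of the epidermal differentiation complex, 1 bar per gene in chromosomal order. Red bars are the 47 genes called higher, blue bars the 3 called lower and grey bars the rest. Sprr2b, Lce1c and Lce3b have the longest bars, and grey bars gather at the S100 genes of the left end.

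Small proline-rich proteins, which bridge other proteins in the cornified envelope, were higher in 12 of 15 measured genes and lower in 1, and the median of their log2 ratios was 2.46. Promoters of 4 Sprr2 genes are shown because these genes were highest in Il17rd KO of all libraries and are near relatives. The windows are again those of RefSeq, build GRCm38.p6, on the plus strand, and capitals mark matches to TGANTCA, an AP-1 type motif, searched on both strands. They lie at chr3:92316455-92316754 for Sprr2b, chr3:92338890-92339189 for Sprr2d, chr3:92364937-92365236 for Sprr2f and chr3:92407741-92408040 for Sprr2i.
Sprr2b: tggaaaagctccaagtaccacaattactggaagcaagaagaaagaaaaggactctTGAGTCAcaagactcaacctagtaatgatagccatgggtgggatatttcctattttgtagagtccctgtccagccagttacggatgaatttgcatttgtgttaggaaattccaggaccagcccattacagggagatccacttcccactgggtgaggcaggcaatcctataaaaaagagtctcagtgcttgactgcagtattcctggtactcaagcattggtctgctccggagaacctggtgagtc
Sprr2d: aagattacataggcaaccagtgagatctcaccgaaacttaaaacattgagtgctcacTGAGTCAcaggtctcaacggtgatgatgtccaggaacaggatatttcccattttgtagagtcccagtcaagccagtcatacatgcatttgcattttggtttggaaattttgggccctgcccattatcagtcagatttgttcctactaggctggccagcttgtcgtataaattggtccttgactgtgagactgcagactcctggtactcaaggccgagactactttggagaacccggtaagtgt
Sprr2f: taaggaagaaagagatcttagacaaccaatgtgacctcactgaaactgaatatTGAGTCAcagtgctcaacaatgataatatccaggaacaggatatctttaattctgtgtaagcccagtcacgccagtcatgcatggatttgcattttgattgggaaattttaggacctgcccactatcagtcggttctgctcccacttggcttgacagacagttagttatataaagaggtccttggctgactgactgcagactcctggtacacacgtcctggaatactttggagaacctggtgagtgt
Sprr2i: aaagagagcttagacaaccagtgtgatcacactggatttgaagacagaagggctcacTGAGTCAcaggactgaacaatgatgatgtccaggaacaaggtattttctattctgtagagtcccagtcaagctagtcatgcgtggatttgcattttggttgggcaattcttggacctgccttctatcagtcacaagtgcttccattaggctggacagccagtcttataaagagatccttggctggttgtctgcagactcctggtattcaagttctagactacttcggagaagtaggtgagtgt
The 4 windows were 65.7% to 78.2% identical in pairwise alignment, and the motif stood at 193 to 197 bases before the annotated start in each. It was present in 7 of the 9 promoters of measured Sprr2 genes, absent from those of Sprr2a1 and Sprr2a3, and present in 2144 of 27025 promoters of all genes (7.93%). Sprr2k, the one member called lower, also holds the motif, so its presence did not separate higher from lower members. Of the 20 late cornified envelope promoters, 0 held it.

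Sprr2b had 1963 counts in Il17rd KO against 74 in IL-17A WT, with 270 in Il17rc KO and 143 in untreated WT. Sprr2d had 8070 against 930, with 1889 and 1162 in the same further libraries. Sprr2f had 361 against 37, with 42 and 15, and Sprr2i had 1704 against 233, with 196 and 211. In each case Il17rd KO was the highest of the 4 libraries, and it exceeded Il17rc KO, from 4.17-fold (3.97 to 4.39) for Sprr2d to 8.49-fold (7.32 to 9.89) for Sprr2i. Sprr1a and Sprr1b had another order, with Il17rd KO below Il17rc KO and untreated WT. Sprr1a had 18497 counts in Il17rd KO and 8209 in IL-17A WT, against 24722 in Il17rc KO and 28901 in untreated WT. Sprr2k had 59 counts in Il17rd KO against 190 in IL-17A WT.

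The late cornified envelope list, which also holds the neighbouring Crct1 and Kprp, was higher in 21 of 23 measured genes and lower in 0, with the highest median of all lists, 3.41. Lce1c had 388 counts in Il17rd KO against 15 in IL-17A WT, with 259 in Il17rc KO and 635 in untreated WT. Lce3b had 388 against 9, with 101 in Il17rc KO and 28 in untreated WT. Lce1d had 556 against 31, with 319 and 752. The group 1 genes Lce1c and Lce1d were thus highest in untreated WT, and the group 3 gene Lce3b in Il17rd KO. Lce3a had the order of Lce3b, with 230 counts in Il17rd KO, 11 in IL-17A WT, 46 in Il17rc KO and 17 in untreated WT. Lce3a and Lce3b have near-identical copies in Lce3d and Lce3c, and counts within group 3 are uncertain. The members not called were Lce1m and Lce1h, with Lce1h at 173 counts in Il17rd KO against 323 in IL-17A WT.

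Spinous and granular layer genes were higher in 20 of 28 cases and lower in 0; the list's median log2 ratio was 1.76. Krt1, the type II keratin of cells that have left the basal layer, had 22536 counts in Il17rd KO against 756 in IL-17A WT, with 12388 in Il17rc KO and 48645 in untreated WT. Its partner Krt10 had 3635 against 220, with 2220 and 11590. The filaggrin family gene Flg2 was 13.1-fold higher (7.11 to 26.8) and its relative Hrnr 9.29-fold (7.30 to 12.0). The calmodulin-like gene Calml3 was 11.2-fold higher (7.48 to 17.4). The desmosomal cadherin gene Dsc1 had 3574 counts in Il17rd KO and 383 in IL-17A WT. Ivl, which encodes involucrin, and Tgm1, the main envelope crosslinking enzyme, were not called, at log2 ratios of 0.10 and 0.51. Tgm3, a later crosslinking enzyme, was 8.26-fold higher (5.75 to 12.2). Padi3 and Padi4, which convert arginine to citrulline in proteins, were lower, Padi3 with 236 counts in Il17rd KO against 1430 in IL-17A WT and 65 in Il17rc KO.

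Of 33 genes of barrier lipid synthesis 13 were higher and 1 lower, and the median of their log2 ratios was 0.79. Pla2g2f, a secreted phospholipase of upper epidermis, had 795 counts in Il17rd KO against 98 in IL-17A WT, with 690 in Il17rc KO and 3448 in untreated WT. Smpd3, a sphingomyelinase, was 3.82-fold higher (3.40 to 4.31), and the ceramide synthase gene Cers2 was the one lower, at 736 counts against 1525. Among 25 kallikreins and other epidermal proteases 8 were higher, Klk5 and its inhibitor gene Spink5 among them at 3.08-fold (2.59 to 3.67) and 2.56-fold (2.46 to 2.67). The serine protease gene Prss22 was 8.07-fold lower (6.82 to 9.60) and F2rl1, the gene of protease-activated receptor 2, was 3.20-fold lower (3.01 to 3.40). F2rl1 had 1431 counts in Il17rd KO against 4362 in IL-17A WT, 4171 in Il17rc KO and 1699 in untreated WT, so that the Il17rc KO library stood with IL-17A WT.

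Keratins of basal and activated cells were split, with 6 of 17 higher and 5 lower. The simple-epithelium keratin genes Krt8 and Krt18 had 283 and 109 counts in Il17rd KO against 2146 and 947 in IL-17A WT. They had 164 and 88 counts in Il17rc KO and 123 and 60 in untreated WT. Krt42 had 159 counts in Il17rd KO against 1661 in IL-17A WT. Krt75, a companion layer keratin, had 224 counts against 25, and Krt16, a wound keratin with a near-identical pseudogene, was 2.13-fold higher (2.09 to 2.16). Krt6b was 4.22-fold higher (4.05 to 4.40), but 53.4% of its longest transcript has a near-identical match in Krt6a, which had 126660 counts in Il17rd KO and 128984 in IL-17A WT. The basal keratins Krt5 and Krt14 were not called, at log2 ratios of 0.13 and 0.19.

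Transcription factors of epidermal differentiation were higher in 15 of 41 cases and lower in 0; the list's median log2 ratio was 0.55. Irx4, a homeobox gene, had 698 counts in Il17rd KO against 24 in IL-17A WT, with 561 in Il17rc KO and 435 in untreated WT. Pou2f3, a POU factor of suprabasal cells, had 289 against 10, with 244 and 753. Barx2 was 6.66-fold higher (5.90 to 7.54). All 5 measured Skint genes, which encode butyrophilin-like proteins of mouse epidermis, were higher, and the median of their log2 ratios was 2.92, and Skint7 had 182 counts against 13. In the Notch list 2 of 16 genes were higher, the receptor genes Notch1 with 13663 counts against 5859 and Notch3 with 1154 against 329. The target gene Hes1 and the ligand genes Jag1 and Jag2 were not called, at log2 ratios of -0.18, -0.10 and 0.13.

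Wnt pathway genes held some of the highest ratios. Sostdc1, a secreted inhibitor of BMP and Wnt signals, had 1677 counts in Il17rd KO against 35 in IL-17A WT, with 883 in Il17rc KO and 2212 in untreated WT, and was 45.7-fold higher (32.7 to 65.8). Wnt16 had 177 against 5, with 141 in Il17rc KO and 622 in untreated WT. Wnt4 and Wnt3 were 5.01-fold (4.73 to 5.32) and 6.10-fold (4.97 to 7.55) higher, whereas Wnt7a was 3.41-fold lower (3.09 to 3.76), with 537 counts against 1743. In total 8 of 37 genes were higher and 5 lower. Of 41 TGF-beta and BMP genes 9 were higher and 1 lower. The lower gene was Inhba, the activin A chain, at 6386 counts against 15679. The BMP target Id1 had 68 counts in Il17rd KO and 14 in IL-17A WT. Of the IGF-binding proteins Igfbp2 was 7.17-fold higher (6.50 to 7.92) and Igfbp7 3.16-fold lower (3.04 to 3.29).

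Of 37 measured hypoxia-responsive and glucose-handling genes 13 were higher, 1 was lower and 23 were not called; the list's median log2 ratio was 0.65. Bnip3, a mitophagy receptor induced by low oxygen, had 648 counts in Il17rd KO against 52 in IL-17A WT, with 812 in Il17rc KO and 640 in untreated WT. Adm, the gene of adrenomedullin, had 1154 against 160, with 770 and 1710. Slc2a1, which encodes the glucose transporter GLUT1, had 17833 against 4062, with 11745 and 19824, and the lactate exporter gene Slc16a3 was 3.59-fold higher (3.38 to 3.81). Hif1a, the oxygen-sensing factor, had 12226 counts in Il17rd KO and 5267 in IL-17A WT. For Bnip3, Adm and Slc2a1 the IL-17A WT library was the lowest of all, and Il17rd KO was closer to untreated WT than to it. Glycolytic enzymes of high level such as Pkm and Hk1 were not called, and Eno1b, the one lower, has a near-identical copy in Eno1.

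Of 37 genes of sterol and fatty acid synthesis 6 were lower, 0 were higher and 31 were not called, and the median of their log2 ratios was -0.65. Dhcr7 and Lss, enzymes of cholesterol synthesis, were 2.41-fold (2.28 to 2.55) and 2.04-fold (1.95 to 2.14) lower. Their regulator genes Srebf2 and Srebf1 were not called, at log2 ratios of -0.03 and 0.12. Of 34 genes of arginine, polyamine and amino acid metabolism 2 were higher, 2 were lower and 30 were not called. The median of their log2 ratios was 0.23, and the lower members were Arg1 and Odc1. Arg1, which splits arginine, had 397 counts in Il17rd KO against 2239 in IL-17A WT, 2053 in Il17rc KO and 561 in untreated WT. The ratio was 5.92-fold lower (5.32 to 6.60) relative to IL-17A WT, and 5.30-fold lower (4.75 to 5.91) relative to Il17rc KO. Odc1, the first enzyme of polyamine synthesis, was 5.19-fold lower (4.92 to 5.48) than in IL-17A WT, with a near-identical pseudogene.

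Genes of adhesion, channels and cell shape included several of the lowest. Hmga2, a chromatin protein of growing and mesenchymal-type cells, had 633 counts in Il17rd KO against 8181 in IL-17A WT, with 428 in Il17rc KO and 251 in untreated WT. Kcnn4, a calcium-activated potassium channel, had 158 against 2745, with 182 and 48. Gjb2, the gene of connexin 26, was 3.02-fold higher (2.69 to 3.40). Itga2, the collagen-binding integrin chain, had 2044 counts in Il17rd KO and 9504 in IL-17A WT, and Lamb1 was 3.59-fold lower (3.45 to 3.74). Of 35 basement membrane and integrin genes 8 were lower and 5 higher, and the median of their log2 ratios was -0.45, and Fras1, a protein of the embryonic skin basement membrane, was the member furthest on the higher side with 1754 counts against 116. Claudin 7 and Epcam, partners in cell junctions, were lower by 8.04-fold (6.22 to 10.5, Cldn7) and 3.98-fold (3.83 to 4.13). The water and glycerol channel gene Aqp3 had 1653 counts in Il17rd KO and 170 in IL-17A WT. Of 45 genes of the actin cytoskeleton and YAP targets 6 were lower and 0 higher, Ctgf and Cyr61 by 7.40-fold (6.87 to 7.98) and 4.76-fold (4.58 to 4.96) and Actb by 2.33-fold (2.30 to 2.35).

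Few cell cycle genes were called against IL-17A WT, though the lists as a whole were shifted by small ratios. Of 40 genes of DNA replication 1 was higher and 1 lower, and the list's median log2 ratio was -0.25. That is below the lower quartile of all tested genes, -0.22. Of 44 mitosis genes 2 were higher and 0 lower. Their log2 ratios ran from -0.13 to 1.13, and the median of 0.36 lay above the upper quartile of all tested genes, 0.28. E2f2 had 275 counts in Il17rd KO against 70 in IL-17A WT, and 909 in Il17rc KO. Ccnd1, the gene of cyclin D1, had 3484 against 8534, with 5468 in Il17rc KO and 1546 in untreated WT. Against Il17rc KO both lists were lower in median, by log2 ratios of -0.66 and -0.86, and 2 and 6 members were called lower. Summed over the mitosis list, Il17rd KO had 3464 CPM, Il17rc KO 6250, IL-17A WT 2710 and untreated WT 1042.

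Lists of housekeeping functions and of stress and interferon responses had median log2 ratios from -0.20 to 0.07, against 0.01 over all tested genes. Of 67 oxidative phosphorylation subunits encoded in the nucleus 0 were called, with log2 ratios between -0.59 and 0.29. Of 39 heat shock and unfolded protein response genes 1 was higher, Hspb8, and of 42 NRF2 target genes 3 were higher and 1 lower. The interferon response list had 4 of 36 higher and 1 lower, with Ifit1 at 28 counts against 5. Cytosolic ribosomal protein genes had 4 of 79 lower, Rpl28, Rpl39, Rpl15 and Rpl21, and a median of -0.20.

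**Figure D4:**
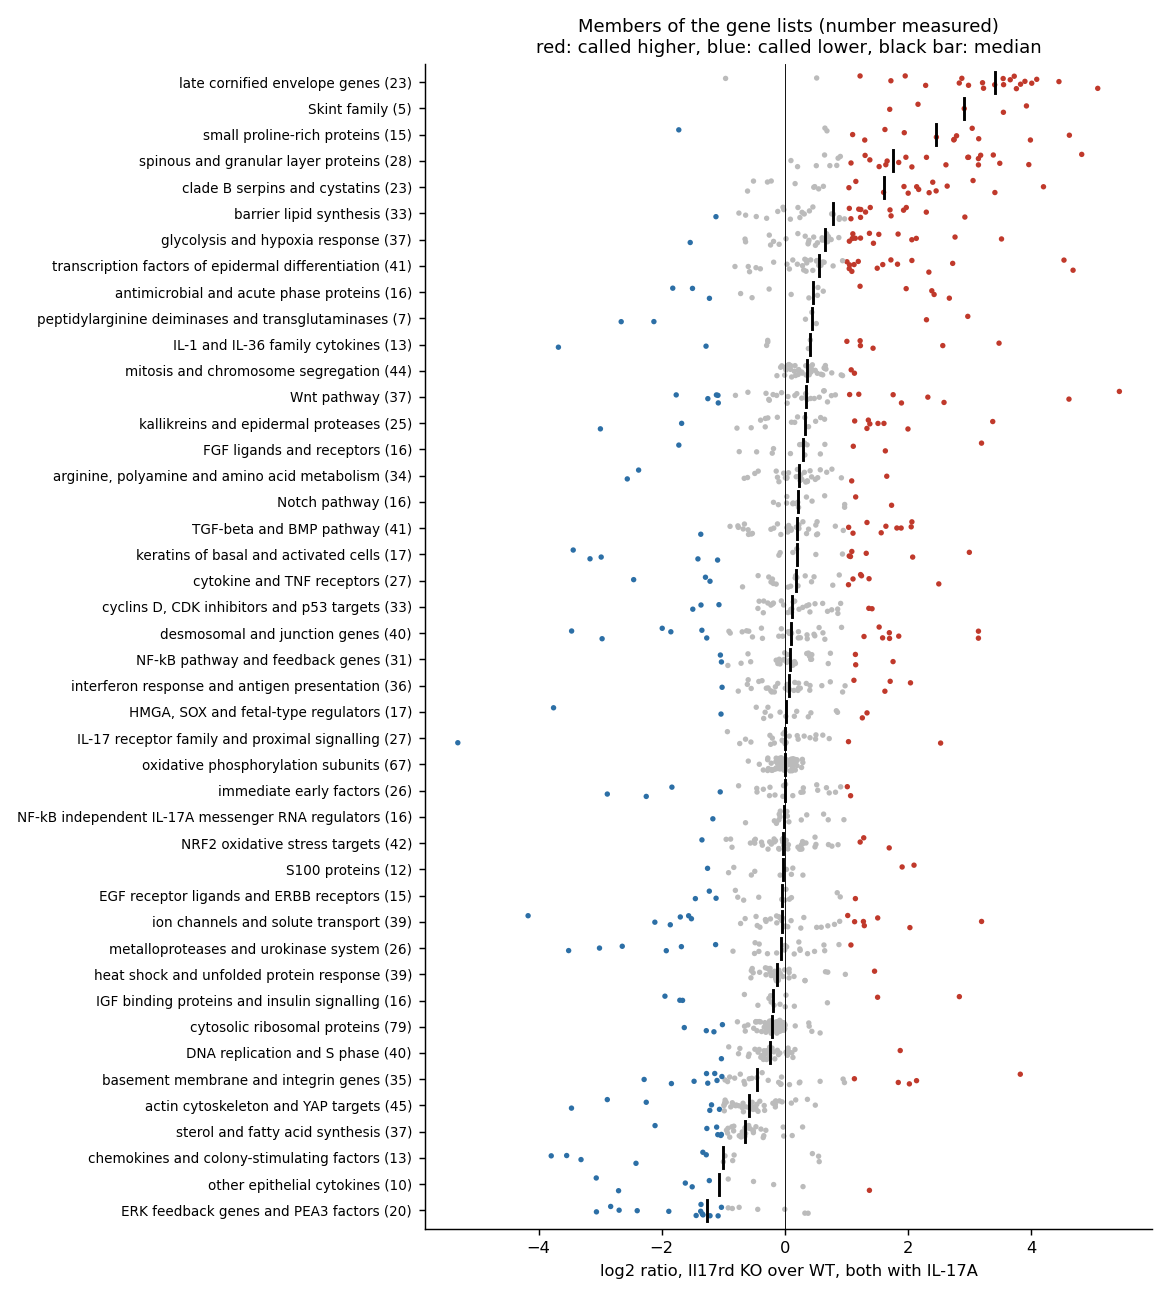
Log2 ratio of Il17rd KO over WT, both with IL-17A, for each measured member of 44 gene lists, ordered by the list's median (black bar), with the number of measured genes in parentheses. Red points are called higher and blue points called lower. Late cornified envelope genes have the highest median, 3.41, and ERK feedback genes the lowest, -1.27.

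Markers of other cell types differed between the libraries. Of 16 fibroblast markers 11 were higher in Il17rd KO and 0 lower, and the median of their log2 ratios was 1.40. Their sum was 263 CPM in Il17rd KO, 230 in IL-17A WT, 205 in Il17rc KO and 318 in untreated WT. Vim, which was not called (log2 ratio -0.27), made up most of each sum. It had 150, 181, 126 and 180 CPM in that order, so the sums say little about the other markers. The collagen gene Col1a1 had 233 counts against 27, and Col6a2 had 142 against 8. Of 14 melanocyte markers 3 were higher and 0 lower, with a sum of 2407 CPM against 1728, and Tyrp1, the most counted of them, had 19235 counts against 15964. Of 13 hair follicle and sebaceous markers 3 were higher and 1 lower. The 8 immune cell markers had 2 higher and 1 lower, Epcam. The 4 endothelial markers had 2 lower, Flt1 and Kdr, and 2 of the 4 Merkel and neural cell markers were lower, namely Krt8 and Krt18. The part of these cells in the results above was not tested, and fewer cells of a type and less RNA per cell cannot be told apart in bulk RNA.

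The direct comparison of the knockouts, both with IL-17A, gave fewer calls than the comparison with IL-17A WT. Of the 12934 genes 325 were higher in Il17rd KO than in Il17rc KO (2.51%) and 183 were lower (1.41%), which is 3.93% in either direction. The comparison with IL-17A WT shares the Il17rd KO library with this one, so their calls are not independent. Etv4, Spry4, Arg1, F2rl1 and Krt42 were called lower in Il17rd KO than in Il17rc KO and than in IL-17A WT. S100a8, S100a9, Chil1, Lcn2, Serpina3n, Serpinb3a, Sprr2b, Sprr2f and Sprr2i were called higher than in both. Genes between the libraries, lower than in IL-17A WT and higher than in Il17rc KO, included Slco2a1, a prostaglandin transporter, at 7307 counts in Il17rd KO, 2477 in Il17rc KO and 18300 in IL-17A WT. Pdpn, the gene of podoplanin, had 2029 in Il17rd KO, 903 in Il17rc KO and 6613 in IL-17A WT, and Sox11 had 374, 65 and 733 in that order. The small proline-rich list had 6 of 15 members higher than in Il17rc KO, the serpin and cystatin list 6 of 23 and the antimicrobial list 6 of 16. The spinous and granular list had 1 of 28, with a median of -0.04 against Il17rc KO, and the glycolysis and hypoxia list 0 of 37. Slco2a1, Pdpn and Sox11 were picked for mention after their values were seen.

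Some large ratios rest on genes whose reads can be placed in several near-identical loci. Mitochondrial genes and their nuclear copies held very different counts in different libraries. mt-Co2 had 100 counts in Il17rd KO against 1370 in IL-17A WT and 18167 in Il17rc KO, and its copy Gm28661 had 31191 counts in Il17rd KO against 113 in IL-17A WT. The other copy Gm13341 had 33 counts in Il17rd KO and 11770 in IL-17A WT. Summed, the family had 1525 CPM in Il17rd KO, 677 in IL-17A WT, 911 in Il17rc KO and 146 in untreated WT. For cytochrome c oxidase 1 the sum was 6189 CPM in Il17rd KO and 6384 in IL-17A WT, although the copy Gm29216 had 31932 counts against 93. For NADH dehydrogenase 4 the sums still differed, with 616 CPM in Il17rd KO and 2546 in IL-17A WT. Ratios of mitochondrial genes are therefore not read here as levels. Actg1, gamma actin, had 10090 counts in Il17rd KO against 106257 in IL-17A WT, 79635 in Il17rc KO and 104581 in untreated WT, and adding its pseudogene copy Gm12715 left it 10.6-fold lower than in IL-17A WT. Whether its reads were placed in copies outside the deposited rows was not tested. Of all rows 832 have a near-identical copy, and 109 of the called genes are among them.

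**Figure D5:**
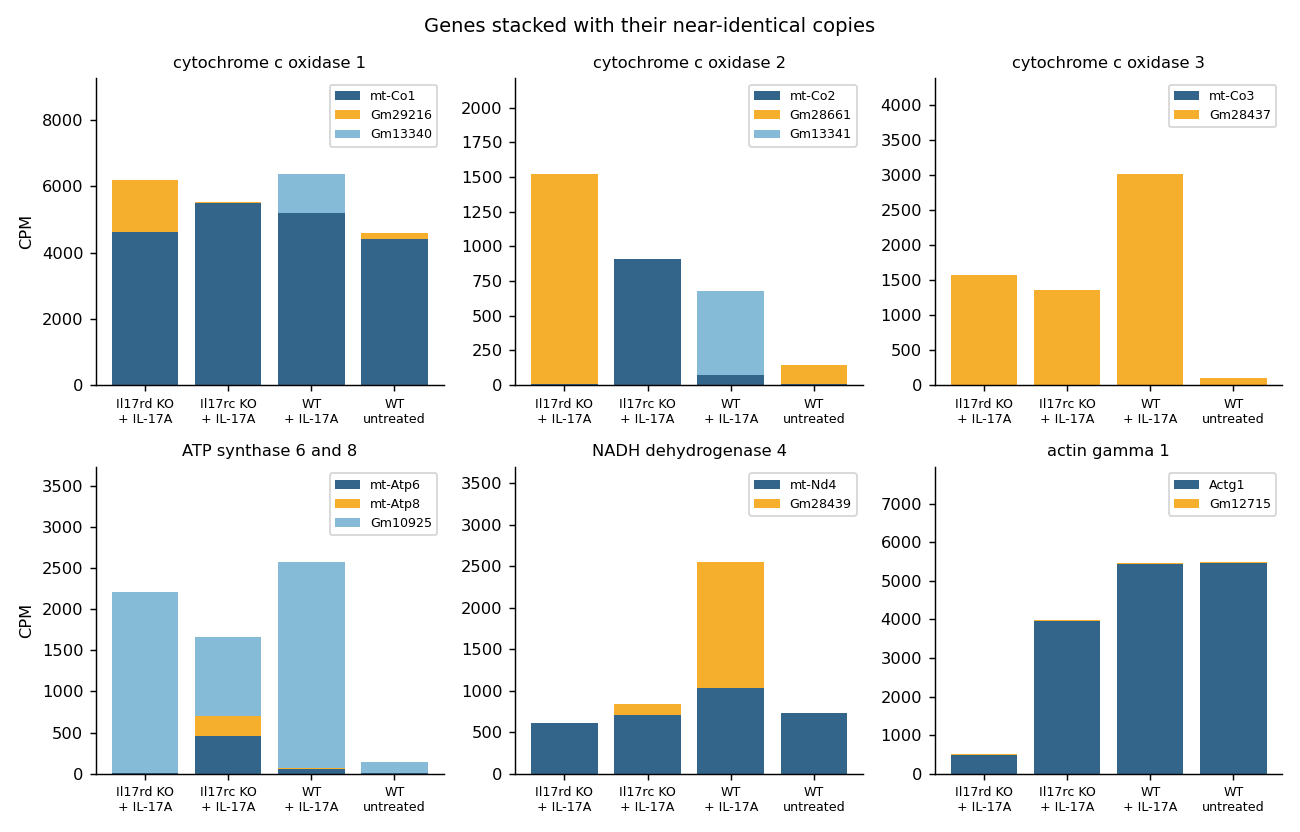
CPM of 5 mitochondrial gene families and gamma actin in the 4 libraries, stacked bars with 1 colour per gene or near-identical copy. For cytochrome c oxidase 2 most counts are held by Gm28661 in Il17rd KO and untreated WT, by Gm13341 in IL-17A WT and by mt-Co2 in Il17rc KO. For cytochrome c oxidase 1 mt-Co1 holds most in each, and for gamma actin the Il17rd KO bar alone is low.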

How the data were processed

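RNA-seq gene tables of 4 libraries of mouse keratinocytes were used, 1 per group, and 2 of them are compared. Each table holds raw counts, deposited by the authors as whole numbers with no normalization. The deposited FPKM values served for a check of library size and as an alternative scale. Reads were handled with Trim Galore 0.4.4, HISAT2, featureCounts of Subread and edgeR on build mm10, per the submitters' processing notes. The sources used here do not give the annotation, the strand setting or the treatment of reads with several matches. Every deposited gene exceeds 1 CPM in at least 2 libraries, so a gene of 1 library alone is not analysed here.

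Counts were divided by library totals times TMM factors over the 4 libraries (edgeR 4.0.16, R 4.3.3). The TMM factors were 1.04 for Il17rd KO and 0.984 for IL-17A WT. Log2 ratios use a prior count of 2, and intervals are exact conditional binomial (Clopper-Pearson) 95% intervals from scipy 1.17.1. Alternatives were DESeq2 1.42.0 size factors, library totals, TMM over the 2 libraries, other filters, prior counts, fold limits and intervals, and FPKM. Of the rows, 12853 matched a symbol of GENCODE M21 (GRCm38), and 17 symbols turned into dates are counted and not named. Near-identical copies are other genes that match at least 95% of bases over at least 50% of the longest transcript (BLAST+ 2.17.0).

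Named are the receptor genes, the 15 genes each way with intervals furthest from 1, up to 5 members of each of the 53 lists with the largest ratios and the least changed one, and the 10 genes each way called against both other IL-17A libraries. Further list members, the genes near Il17rd, Hif1a, Actb, Anxa11, Csf1, S100a7a and the genes so marked in the text were added with their values in view. Some named genes are not reported here. The members, lists and alternatives were chosen with earlier results of these data known.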

Additional observations from a re-analysis of the deposited data

How the results depend on the processing

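The counts of 782 higher and 466 lower genes changed by less than 1.5 times under DESeq2 size factors, library totals, TMM over the 2 libraries, no filter, both other prior counts, FPKM, a wider interval and both restricted gene sets, of which the one without near-identical copies was chosen after seeing the data. They were 762 to 880 higher and 398 to 478 lower under the 3 other scalings. A filter at a mean of 10 CPM left 375 higher and 261 lower among fewer genes tested. A 1.5-fold limit gave 1548 and 1069, and a 4-fold limit 229 and 107. Under every one of these settings 0 genes were called in the opposite direction. That outcome was fixed in advance and says nothing on stability. Filters, fold limits, intervals, gene sets and prior counts cannot change the sign of a ratio. The other scalings moved the median log2 ratio to at most 0.09. Of the recomputed counts of list members 808 stayed within 1.5 times and 40 did not. Of the recomputed log2 ratios of named genes 2398 stayed inside the counting interval and 98 moved outside it. Among the called ones 0 changed sign, which was fixed in the same way.

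Fewer counts mean wider intervals, which makes a call harder, yet genes of low level were called more often. Genes at 1 to 3 CPM were called in 18.6% of cases and genes at 30 to 100 CPM in 5.36%. How much of this excess is noise between single libraries was not tested. No paired analysis was possible because each group has 1 library. Leaving out a replicate was not possible for the same reason.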

Other observations

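Within 5 Mb of Il17rd on chromosome 14, 48 genes were tested, 2 were higher and 2 lower, which is 8.33% against 9.65% over all tested genes. The higher ones, Il17rb and Chdh, are direct neighbours. Chdh, the choline dehydrogenase gene, had 1444 counts in Il17rd KO against 281 in IL-17A WT, with 1840 in Il17rc KO and 2990 in untreated WT. Il17rb had 28 against 3, with 25 and 72. Both genes were thus lowest in IL-17A WT, and Il17rd KO was close to Il17rc KO. The lower ones were Anxa11, with 515 counts against 1032, and Arhgef3, a gene next to Il17rd, with 394 against 983, 342 in Il17rc KO and 372 in untreated WT.

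Some genes held a middle level in Il17rd KO, between those of Il17rc KO and IL-17A WT. Prss35 had 216 counts in Il17rd KO, 455 in Il17rc KO and 10 in IL-17A WT, and Tbx1 had 112, 351 and 34. Clu, the gene of the chaperone clusterin, had 2234 in Il17rd KO, 941 in Il17rc KO and 5514 in IL-17A WT. Cbr2, a carbonyl reductase gene, had 2031, 552 and 5312 in that order. These 4 genes were picked after their values were seen. Among gene classes, lincRNA genes were called in 18.1% of 105 cases and protein-coding genes in 9.4% of 11695. Some small classes had larger shares, such as unprocessed pseudogenes with 52.4% of 21. Low-level genes were called more often, and the levels of these classes were not compared.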
